A study of Mus musculus with 12 samples.

Results

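The genes described here encode trans-synaptic adhesion proteins of 3 families, namely the neurexins Nrxn2 and Nrxn3, the neuroligins Nlgn1, Nlgn2 and Nlgn3, and the leucine-rich repeat proteins Lrrtm1, Lrrtm2, Lrrtm3 and Lrrtm4. They were found by symbol, and all 9 were among the 22609 genes of the count tables and in the table of FPKM values. The group was put together with earlier results of these data known, and Nrxn3 was chosen by its stepwise rise from zero, so its values are given as a description without a test. The other 8 genes were tested in fits over the whole table.

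The cells were mouse ANS cells, adherent neural stem cells derived from normal embryonic brain at E14.5 and used as a model of inhibitory neuron differentiation. At T0 (3 libraries) they proliferated in growth medium, Euromed-N with 1% N2, 20 ng/ml hrFGF2 and 20 ng/ml hrEGF. T1 (3 libraries) was taken 2 days after the change to medium D1. There hrEGF was lowered to 2 ng/ml and hrFGF to 10 ng/ml, with 0.5% N2 and 1% B27. T2 (4 libraries) was taken 2 days after the change to medium B. This medium held no EGF and was a mix of DMEM/F12 and Neurobasal in place of Euromed-N. It held BDNF at 20 ng/ml and 10 ng/ml FGF-2 with the same amounts of N2 and B27, and the cells were on laminin. T3 (2 libraries) was labelled as 10 days in medium B, while the paper's Results describe 10 further days after T2. Medium, days and cell density changed together, so their effects cannot be told apart. The labels do not say whether the libraries of a time point came from separate derivations of cells, and p-values measure the spread between these samples.

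Neurexins sit mainly on the presynaptic membrane. Their extracellular parts bind neuroligins and LRRTMs on the facing postsynaptic membrane, while the cytoplasmic ends of neurexins and neuroligins bind scaffold proteins with PDZ domains. Nlgn2 is best known from inhibitory synapses and Nlgn1 from excitatory ones, Nlgn3 is found at both, and LRRTMs are known for organizing excitatory synapses.

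The coding ends are shown because they are where neurexins and neuroligins meet the scaffolds described below. Each is the last 30 bases of the longest complete coding sequence of a gene in GENCODE vM1 (genome NCBIM37, which is mm9), read 5′ to 3′ on the coding strand, with the 4 codons before the stop codon in capitals. In neurexins and neuroligins these codons encode the PDZ-binding end.
Nrxn2, chr19:6532119-6532148, plus strand, exon 22 of 22: aagaacaaagacaaaGAGTATTACGTCtga
Nrxn3, chr12:91570821-91570850, plus strand, exon 23 of 23: aaaaacaaggacaagGAGTATTATGTGtaa
Nlgn1, chr3:25332560-25332589, minus strand, exon 6 of 6: ccccattcacattcaACAACCAGGGTAtag
Nlgn2, chr11:69638705-69638734, minus strand, exon 7 of 7: ccccatccccactccACCACTCGGGTAtag
Nlgn3, chrX:98515572-98515601, plus strand, exon 8 of 8: ccccactcacactccACTACCCGTGTAtag
Lrrtm1, chr6:77195095-77195124, plus strand, exon 2 of 3: cagcagcctgcgaggGAATGCGAGGTGtga
Lrrtm3, chr10:63392806-63392835, minus strand, exon 3 of 3: atcagtgaccataaaCCACAGCTGGCCtga
Lrrtm4, chr6:80759154-80759183, plus strand, exon 3 of 3: gccatttatctggagAGAATAACAAACtaa
Nrxn2 and Nrxn3 shared 24 of the 30 bases and 10 of the 12 capitals, counted position by position from the stop codon. Each pair of neuroligins shared 23 or 24 bases and 9 capitals. The LRRTM ends shown shared only 6 to 10 bases and 1 to 3 capitals with each other. Lrrtm1 shared 14 bases with each neurexin, and 6 and 7 capitals with Nrxn2 and Nrxn3. The end shown was that of 3 of 8 complete Lrrtm4 transcripts, 6 of 7 for Nrxn2 and 8 of 9 for Nrxn3. For the other genes it was that of every complete transcript.

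The number of reads counted on genes was 8910724 to 16631614 per library. T0 replicate 3 stood apart from the other T0 libraries, with a chi-square per gene of 101 and 105 against them compared with 3.28 between those, and the 2 T3 libraries differed from each other at 34.1. T0 replicate 3 was the lowest T0 library for 8 of the 8 adhesion genes with reads at T0, whereas it was the lowest for 46.2% of all 12607 genes tested at T2. T3 replicate 4 lay below T3 replicate 1 for 7 of the 9 genes, against 50.1% of 12721 genes. Counts below are given as CPM, reads scaled to library size after TMM normalization of the libraries, as mean ± SD, and levels of different genes are compared only as FPKM, which also accounts for transcript length.

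The labelled cell types were checked on marker lists. The summed CPM of 7 neuronal markers was 892 to 962 at T0 and 1673 to 2678 in all later libraries, most of it from Mtap2 at 880 to 921 and 1309 to 2169. Dcx, a microtubule protein of young neurons, was at 1.76 to 8.18 CPM at T0 and 201 to 550 later. Of the markers of mature neurons, Rbfox3, Snap25 and Syt1 reached at most 3.09 CPM and Stmn2 at most 1 read in any library. T3 was labelled GAD+. Gad1, which makes GABA, was at 23.9 and 48.7 CPM in the T3 libraries, but Gad2 and the vesicular GABA transporter Slc32a1 had at most 1 read in any library. All 6 astrocyte markers and all 4 progenitor markers averaged at least 1 CPM at every time point, but the levels of some moved. Mki67, a gene of dividing cells, was at 571 to 859 CPM at T0 and 31.5 to 84.6 at T1. It was at 44.2 to 114 in the T2 libraries and higher again, at 197 and 312, in the T3 libraries. The other progenitor markers, Nes, Sox2 and Pax6, lay within their T0 ranges at T3. In no later library were they below these ranges. The astrocyte genes Slc1a2 and S100b went from 32.1 to 331 and 18.3 to 75.5 CPM at T0 to 376 to 736 and 99.2 to 121 CPM at T3. Aldoc and Aldh1l1 went the other way, from 1836 to 2223 and 15.9 to 41.3 CPM at T0 to 1133 to 1151 and 9.79 to 10.05 CPM at T3. Gfap and Aqp4 at T3 lay within their T0 ranges. The summed CPM of all 6 was 1911 to 2882 at T0 and 1712 to 2040 at T3. Pdgfra, a marker of oligodendrocyte precursors, was at 3.67 to 30.1 CPM at T0, 89.3 to 193 at T1, 144 to 188 at T2, and 229 and 67.5 in T3 replicates 1 and 4. The summed CPM of the 6 oligodendrocyte lineage markers was 6.70 to 46.5 at T0 and 102 to 206 at T1, then 157 to 210 in medium B at T2, and 79.0 and 262 in the T3 libraries. Summed microglial markers were at most 0.382 CPM, glutamatergic neuron markers at most 0.753 and endothelial markers at most 2.68. The part of these cell types in the results below was not tested, and in bulk RNA fewer cells of a type and less RNA per cell cannot be told apart.

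**Figure D1:**
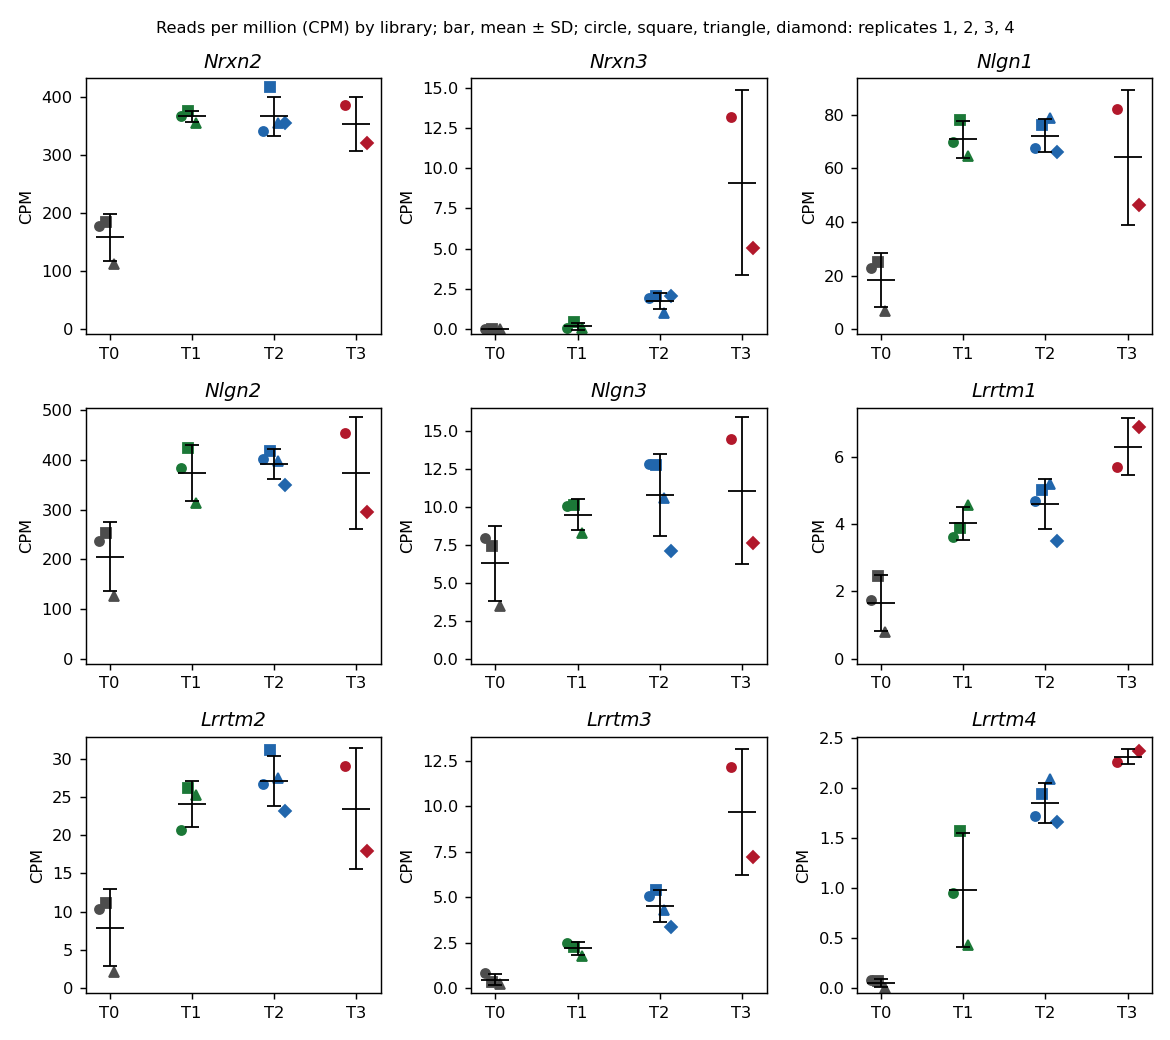
Level in CPM (linear axis) of the 9 adhesion genes in each of the 12 libraries by time point, with circles, squares, triangles and diamonds for replicates 1, 2, 3 and 4 and bars for the mean ± SD (n = 3, 3, 4 and 2). The means of Nrxn3, Nlgn3, Lrrtm1, Lrrtm3 and Lrrtm4 were higher at every later time point, while those of Nrxn2, Nlgn1, Nlgn2 and Lrrtm2 were highest at T2.

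The comparisons with T0 asked which adhesion genes changed as the cells left proliferation. At T1, 5 of the 8 genes other than Nrxn3 rose (Nrxn2, Nlgn1, Nlgn2, Lrrtm1 and Lrrtm3) and 0 fell, by edgeR's quasi-likelihood test with Benjamini-Hochberg adjustment over all genes fitted. Of the other three, Lrrtm2 and Nlgn3 did not pass the threshold of 0.05 and Lrrtm4 had too few counts for the fit. Over the whole table, 15.1% of 12364 genes were called higher at T1 and 16.8% lower. At T2, 7 of the 8 genes rose and 0 fell, and only Nlgn3 did not pass, where 21.4% of 12607 genes were higher and 21.8% lower. At T3, 2 of the 8 rose (Lrrtm3 and Lrrtm4) and 0 fell, where 3.31% of 12721 genes were higher and 1.41% lower. The median log2 fold change was 1.28 over the 7 genes fitted at T1, 1.64 over the 8 at T2 and 1.71 over the 8 at T3, with medians over all genes of -0.0082, 0.0023 and -0.015. The 3 comparisons share the T0 libraries. Some genes had too few reads at T0 to pass the filter on low counts by these libraries alone, so their calls were favoured by it. These were Lrrtm3 at all 3 times, Lrrtm1 at T2, and Lrrtm4 at T2 and T3. Of the genes whose T0 counts were enough, 4 of 6 rose at T1. The same count gave 4 of 5 for T2, while for T3 it gave 0 of 6.

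In CPM every T1 library was above every T0 library for 8 of the 8 genes, a separation found for 28.6% of the genes tested at T1. The same held for 7 of the 8 at T2 (27% of all genes) and for 7 of the 8 at T3 (24.3%), with Nlgn3 overlapping both times. Leaving out single libraries moved the number of calls. At T1 it was 1 without T1 replicate 1 or without T1 replicate 2 (Nrxn2 in both) and 3 without T1 replicate 3. Over all genes these fits called 6.68%, 6.47% and 8.47% higher. Without T0 replicates 1, 2 and 3 the number was 4, 6 and 7, where 11.2%, 11% and 25.2% of all genes were higher. At T2 it was 7, with the same genes, whichever of the 7 libraries was left out, where 16% to 26.7% of all genes were higher. At T3 it was 6 without T0 replicate 3, where 9.94% of all genes were higher and 8.49% lower. Without T0 replicate 1 or T0 replicate 2 it was 0, where only 0.111% and 0.104% of all genes were higher. Leaving out either T3 library left 1 at T3, so those fits are not counted.

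**Figure D2:**
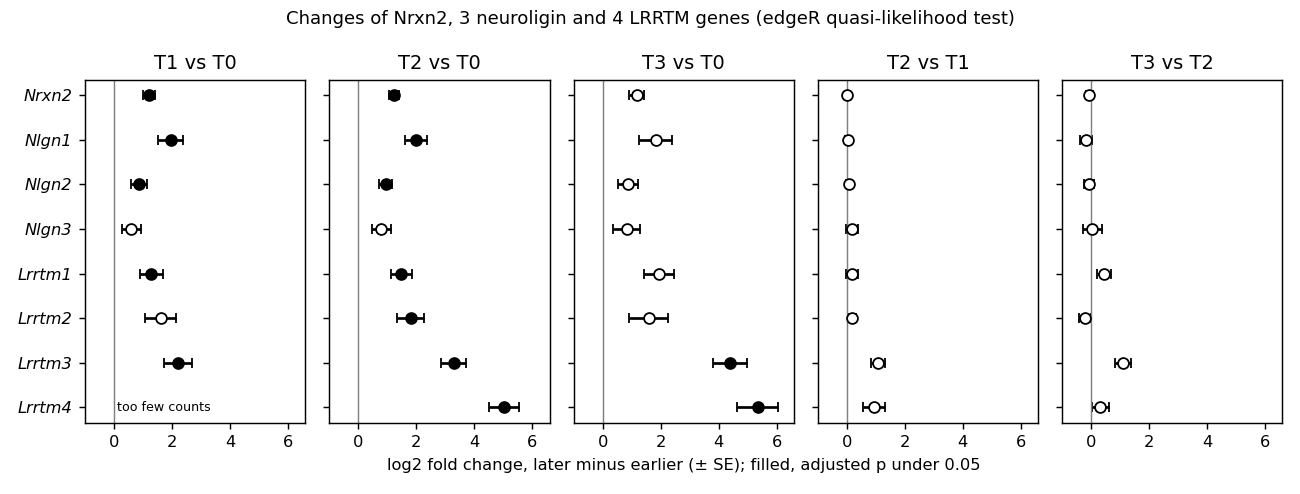
Log2 fold change (later minus earlier time point, ± SE) of 8 adhesion genes in 5 comparisons, with filled circles for an adjusted p under 0.05 (edgeR, without pairing of libraries). Values against T0 were positive throughout, while at T2 against T1 and T3 against T2 only Lrrtm3 lay more than 1 above zero and 0 of the 8 genes were called.

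Nrxn2, the neurexin gene at chr19:6418731-6544169 on the plus strand, had 177, 185 and 111 CPM in the T0 libraries and 367, 375 and 355 CPM in the T1 libraries. It was at 341, 416, 354 and 354 CPM at T2 and at 386 and 319 CPM at T3. All 9 later libraries were thus above all T0 libraries, at a similar level. The log2 fold change was 1.21 ± 0.20 (SE) at T1 (adjusted p = 0.00543, edgeR) and 1.23 ± 0.18 at T2 (adjusted p = 0.00119, edgeR). At T3 it was 1.17 ± 0.26 and did not pass (adjusted p = 0.0606, edgeR). Nrxn2 was the most abundant of the 9 genes in FPKM at T0, with 51.1 ± 2.26 (SD, n = 3), and stood at 86.8 ± 1.25 at T1. T0 replicate 3 was the lowest T0 library on both scales. In FPKM, at 48.8, it was close to the others at 53.3 and 51.3, whereas in CPM it lay further below them. From the FPKM values the log2 fold change at T2 was 0.70.

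Nrxn3 spans chr12:89961320-91573375 on the plus strand, the longest of the 9 genes. It had 0 reads in each of the 3 T0 libraries, which allows up to 3 reads per library or a mean of 0.215 CPM. At T1 it had 1, 6 and 1 reads, at T2 20, 22, 11 and 34 reads, and at T3 157 reads in replicate 1 and 47 in replicate 4. In CPM these were 0.0862, 0.448 and 0.0610 at T1, 1.91, 2.04, 1.00 and 2.09 at T2, and 13.1 and 5.06 at T3. The libraries of successive time points did not overlap. Only 1 of the T1 libraries exceeded 3 reads, so no fold is given for T1. Against the limit that 0 reads allow, the mean at T2 was at least 8.17-fold higher and the lowest T2 library at least 4.65-fold higher. At T3 the bound was at least 42.3-fold for the mean and at least 23.5-fold for replicate 4 alone. In FPKM the order within T2 differed, since replicate 1 was highest at 0.939 and replicate 4, highest in CPM, was lowest at 0.329.

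Nlgn1 lies at chr3:25330733-26032656 on the minus strand. It had 22.7, 25.3 and 6.77 CPM at T0, and 69.9, 78.2 and 64.5 CPM at T1. At T2 it was at 67.7, 76.1, 78.8 and 66.2 CPM, and at T3 at 82.1 and 46.4 CPM. The lowest later library was above the highest T0 library, and the spread was widest at T0 and T3. Nlgn1 gave the largest change among neuroligins, with a log2 fold change of 1.95 ± 0.44 at T1 (adjusted p = 0.0163, edgeR), 2.00 ± 0.38 at T2 (adjusted p = 0.00388, edgeR) and 1.83 ± 0.56 at T3, which did not pass (adjusted p = 0.111, edgeR).

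Nlgn2, at chr11:69636624-69651286 on the minus strand, encodes the neuroligin of inhibitory synapses. Its T0 libraries had 238, 253 and 126 CPM and its T1 libraries 383, 425 and 313 CPM. At T2 it was at 402, 418, 398 and 349 CPM and at T3 at 454 and 294 CPM. In FPKM T3 replicate 4, at 54.1, lay within the T0 range of 26.2 to 54.9. In CPM the groups did not overlap with T0, but the rise was smaller than that of Nlgn1. It amounted to 0.86 ± 0.27 on the log2 scale at T1 (adjusted p = 0.0494, edgeR), close to the threshold, and 0.95 ± 0.23 at T2 (adjusted p = 0.0109, edgeR). At T3 the value was 0.88 ± 0.35 (adjusted p = 0.186, edgeR).

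Nlgn3 lies at chrX:98491178-98521302 on the plus strand and is known from both kinds of synapses. It had 7.95, 7.40 and 3.45 CPM at T0, and 10.1, 10.1 and 8.29 CPM at T1. It was at 12.8, 12.8, 10.6 and 7.07 CPM at T2 and at 14.49 and 7.64 CPM at T3. T2 replicate 4 and T3 replicate 4 fell within the range of T0. The log2 fold changes of 0.59 ± 0.32, 0.80 ± 0.33 and 0.84 ± 0.47 at T1, T2 and T3 did not pass (adjusted p = 0.193, 0.0815 and 0.311, edgeR). At T2 DESeq2 did call it.

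Neuroligin RNA was mainly Nlgn2 at all times. Its share of the summed FPKM of the 3 neuroligins was 89.0% to 91.7% in the T0 libraries and 81.7% to 87.7% in the later ones. The share of Nlgn1 was 4.54% to 6.30% at T0, 11.3% to 15.0% at T1 and 9.26% to 12.1% at T2, and the T3 libraries had 9.57% and 11.05%, so that every later library was above every T0 library. Nlgn3 made up 2.76% to 5.16% in all libraries. With CPM per kb of GENCODE vM1 exons in place of FPKM, a measure added after these values were seen, Nlgn1 took 6.59% to 11.5% at T0 and 17.1% to 21.2% later, and Nlgn2 77.7% to 92.1% in all libraries.

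**Figure D3:**
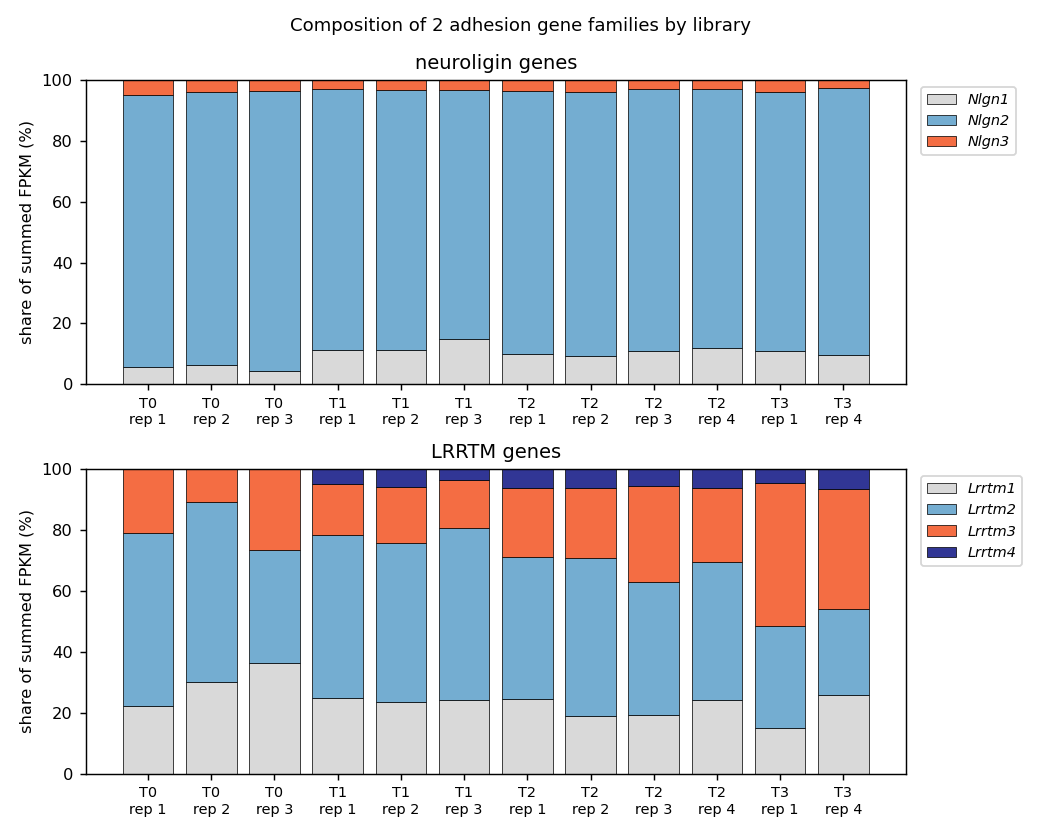
Share of the summed FPKM (%) taken by each neuroligin gene (upper panel) and each LRRTM gene (lower panel) in each of the 12 libraries. Nlgn2 made up 81.7% to 91.7% of the neuroligins everywhere, while Lrrtm3 made up 15.7% to 18.5% of the LRRTMs at T1 and 39.3% and 47.0% at T3, shares that were lower per exon length.

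Among the LRRTMs, the postsynaptic neurexin ligands with leucine-rich repeats, 3 genes lie inside alpha-catenin genes on the opposite strand. Lrrtm1 (chr6:77192683-77207785, plus) lies within Ctnna2, Lrrtm2 (chr18:35368665-35374678, minus) within Ctnna1 and Lrrtm3 (chr10:63391220-63553025, minus) within Ctnna3. Lrrtm4 (chr6:79968871-80760137, plus) has no such host. In GENCODE vM1 0 exon bases of these LRRTMs overlap exons of the host. The library kit does not mark strand, so reads from unspliced host RNA and from the nested gene cannot be told apart. The positions given for these 3 genes in the FPKM table are those of the whole host gene.

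Lrrtm1 had 1.73, 2.44 and 0.776 CPM at T0 and 3.62, 3.88 and 4.57 CPM at T1. It was at 4.68, 5.00, 5.19 and 3.50 CPM at T2, and 5.69 and 6.89 CPM at T3. Every later library was above every T0 library, and in CPM both T3 libraries were above all T2 libraries. In FPKM T2 replicate 1, at 1.75, was above both T3 libraries, at 1.57 and 1.66. On the CPM scale the changes were as follows. Lrrtm1 rose by 1.28 ± 0.40 on the log2 scale at T1 (adjusted p = 0.0476, edgeR) and by 1.48 ± 0.37 at T2 (adjusted p = 0.0125, edgeR). The value at T3 was 1.94 ± 0.51 (adjusted p = 0.0824, edgeR). Its host Ctnna2, the neural alpha-catenin that links cadherins to actin, moved much further, from 0.670 ± 0.218 CPM at T0 (SD, n = 3) through 4.03 ± 1.36 at T1 (n = 3) and 25.9 ± 2.46 at T2 (n = 4) to 64.5 ± 40.0 at T3 (n = 2). From T1 to T2 Ctnna2 rose by 2.70 ± 0.20 (adjusted p = 0.00163, edgeR), while Lrrtm1 changed by 0.18 ± 0.20 (adjusted p = 0.784, edgeR).

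Lrrtm2 had the highest mean FPKM of the LRRTMs up to T2. It had 10.3, 11.2 and 2.05 CPM at T0, and 20.7, 26.2 and 25.3 CPM at T1. At T2 the libraries had 26.8, 31.1, 27.5 and 23.2 CPM, and at T3 29.1 and 17.9 CPM. No later library reached down to the T0 range. With a log2 fold change of 1.61 ± 0.53 it missed the threshold at T1 (adjusted p = 0.0560, edgeR) and passed it at T2 with 1.80 ± 0.47 (adjusted p = 0.0147, edgeR). At T3 the value was 1.59 ± 0.67 (adjusted p = 0.201, edgeR). Its host Ctnna1, the widely expressed alpha-catenin, fell by 0.48 at T1 (adjusted p = 0.0190, edgeR) and by 0.66 at T2 (adjusted p = 0.00153, edgeR), opposite to Lrrtm2.

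Lrrtm3 had more reads at each later time point. The T0 libraries held 11, 5 and 3 reads, those of T1 29, 30 and 29, those of T2 53, 58, 47 and 55, and those of T3 145 and 67. In CPM this was 0.825, 0.349 and 0.212 before the change of medium and 2.50, 2.24 and 1.77 at T1. It came to 5.06, 5.37, 4.28 and 3.38 CPM at T2 and to 12.1 and 7.21 CPM at T3. The time points did not overlap at any step. The log2 fold change against T0 was 2.21 ± 0.48 at T1 (adjusted p = 0.0144, edgeR), 3.29 ± 0.43 at T2 (adjusted p = 0.000612, edgeR) and 4.39 ± 0.59 at T3 (adjusted p = 0.0237, edgeR). From the FPKM values these were 1.40, 2.21 and 3.20, the last not called (adjusted p = 0.0663, limma), and without T0 replicate 1, the highest T0 library, 2.90, 3.97 and 5.08, again with the last not called (adjusted p = 0.0682, edgeR). Its host Ctnna3 had 0 to 2 reads in every library.

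Lrrtm4 was close to the limit of detection at T0, with 1, 1 and 0 reads. It had 11, 21 and 7 reads at T1, 18, 21, 23 and 27 at T2, and 27 and 22 at T3, or 0.948, 1.57 and 0.427 CPM at T1, 1.72, 1.94, 2.09 and 1.66 CPM at T2 and 2.26 and 2.37 CPM at T3. In CPM successive time points did not overlap, although the last step was small. In FPKM they did, since T1 replicate 2 at 0.357 was above T2 replicate 4 at 0.352. T3 replicate 4, at 0.416 FPKM, lay within the T2 range. The ratio of pooled counts to T0 was 19.7 at T1 (95% exact interval 5.10 to 168), 38.4 at T2 (10.3 to 322) and 48.3 at T3 (12.7 to 410), for counting error only. The adjusted p was 0.000205 at T2 and 0.0222 at T3 (edgeR).

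The shares of the LRRTM genes in their summed FPKM were not tested. Lrrtm2 took 37.0% to 59.1% at T0, 52.3% to 56.6% at T1 and 43.6% to 51.6% at T2. In the T3 libraries it took 33.2% and 28.2%. Lrrtm3 took 10.7% to 26.7% at T0, 15.7% to 18.5% at T1 and 22.6% to 31.8% at T2, and in the T3 libraries 47.0% and 39.3%, so that the T0 range of Lrrtm3 overlapped those of T1 and T2. In FPKM Lrrtm3 was above Lrrtm2 in both T3 libraries, and below it in every T0, T1 and T2 library. Per exon length this order did not hold, since Lrrtm2 was above Lrrtm3 in every library, at T3 with 5.13 and 3.15 CPM per exon kb against 2.86 and 1.70. By that measure Lrrtm3 took 2.86% to 7.47% at T0 and 27.9% and 22.6% in the T3 libraries. Lrrtm4 had at most 6.50% of the FPKM in any library.

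Ordered by mean FPKM, Nrxn2 and Nlgn2 led at every time point, and their ranges overlapped each time. At T2 they had 83.3 ± 4.87 and 82.6 ± 14.47 FPKM (SD, n = 4). Nlgn1 followed with 10.0 ± 0.893, apart from its neighbours. Nlgn3 at 3.37 ± 0.975 and Lrrtm2 at 3.21 ± 0.447 overlapped, as did Lrrtm3 at 1.76 ± 0.431 and Lrrtm1 at 1.48 ± 0.183, and Nrxn3 at 0.542 ± 0.272 and Lrrtm4 at 0.410 ± 0.0430. At T3 Lrrtm3 reached 3.70 ± 1.68 FPKM (n = 2), in a range that overlapped with that of Nlgn3 at 3.46 ± 2.49. This order too depended on the measure of length. Per exon kb Nlgn2 was above Nrxn2 in every library, at T2 with 60.4 to 72.3 CPM against 24.6 to 30.1, and Lrrtm2 was above Nlgn3, at T2 with 4.09 to 5.49 against 0.642 to 1.16.

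The later steps asked what the change from medium D1 to medium B, and then further days in medium B, added. From T1 to T2, 0 of the 8 genes were called, where 0.573% of 12382 genes were higher and 0.0565% lower, and 2 of the 8 had an unadjusted p under 0.05 (Lrrtm3 and Lrrtm4). DESeq2 called 1, Lrrtm3. These counts are from fits without pairing, while the replicate numbers were taken to pair the T1 and T2 libraries. With the number as a block Lrrtm3 rose by 1.19 (adjusted p = 0.0407, edgeR), against 1.07 ± 0.24 without it (adjusted p = 0.0868, edgeR). The block fit called 1.51% of all genes higher and 0.476% lower. Nrxn2, Nlgn1 and Nlgn2 differed between T1 and T2 by 0.011 ± 0.086, 0.036 ± 0.096 and 0.078 ± 0.11 on the log2 scale. From T2 to T3, 0 of the 8 were called, where 0.5% of 12599 genes were higher and 0.691% lower, and 1 had an unadjusted p under 0.05, namely Lrrtm3 with 1.11 ± 0.28 (adjusted p = 0.0865, edgeR). DESeq2 called Lrrtm3 at this step also, and without T3 replicate 1 Nlgn1 was called lower, by 0.63 on the log2 scale (adjusted p = 0.0308, edgeR). That fit had 1 T3 library, assumed to vary like the T2 libraries, and called 4% of 12874 genes lower and 6.46% higher.

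The genes around these families were taken from 3 lists. Of 21 extracellular partners, which bind neurexins, neuroligins or LRRTMs from outside the cell, 12 had enough counts at T2, and 4 of these rose and 0 fell, beside the 21.4% and 21.8% of all genes given above. The median log2 change was 0.44. They included Mdga2, which binds neuroligins and keeps them from neurexins, at 1.54 ± 0.18 (adjusted p = 0.000351, edgeR) and C1ql3 at 1.11 ± 0.39 (adjusted p = 0.0453, edgeR). C1ql3 had too few T0 counts for the filter by these alone, as had the scaffold Apba1 and the adhesion gene Cadm3 named below. The cerebellins Cbln1, Cbln2 and Cbln4, secreted ligands of neurexins, were too low to fit at T2, at a mean of at most 0.147 CPM at T0 and T2. Their T3 means were 0.903, 1.12 and 0.108 CPM. Only Cbln1 could be fitted at T3, through its T3 counts, and it was not called (adjusted p = 0.0712, edgeR). Clstn3, a neurexin-binding calsyntenin, fell at T1 by 1.25 on the log2 scale (adjusted p = 0.0346, edgeR) and was at -0.84 ± 0.33 at T2 (adjusted p = 0.0724, edgeR).

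Of 15 cytoplasmic scaffolds, which bind members of these families from inside the cell, 14 had enough counts at T2. Of these 8 rose and 3 fell, with a median of 0.56, again beside 21.4% and 21.8% of all genes. The neurexin-side adaptors Apba1, Lin7a and Apba2 gave the largest rises, at 4.13 ± 0.54, 2.38 ± 0.23 and 1.37 ± 0.31 (adjusted p = 0.000649, 0.000161 and 0.00802, edgeR). The falls were in Dlg4, which encodes PSD-95, a scaffold of excitatory synapses that binds neuroligins, by 0.90 (adjusted p = 0.000899, edgeR), in Lin7c by 0.45 (adjusted p = 0.0274, edgeR) and in Gphn, the gephyrin gene of inhibitory synapses, by 0.33 (adjusted p = 0.0320, edgeR). Dlg2, a relative of Dlg4 too low to fit at T2, was called at T3, at 0.0718 CPM at T0 and 1.87 CPM at T3 (adjusted p = 0.0329, edgeR), a call that the filter favoured since only its T3 counts were enough.

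Of 31 other synaptic adhesion genes, 24 had enough counts at T2, and 13 rose and 2 fell, with a median of 0.63, beside the same shares of all genes. Cadm3 and Cadm2, adhesion molecules of the immunoglobulin superfamily, rose by 3.77 ± 0.59 and 3.29 ± 0.55 (adjusted p = 0.00148 and 0.00211, edgeR), and the receptor phosphatase Ptprd by 2.68 ± 0.17 (adjusted p = 5.00e-05, edgeR). The latrophilin Lphn2 and the receptor phosphatase Ptprf fell by 0.50 and 0.49 (adjusted p = 0.0381 and 0.0195, edgeR). Flrt1, a latrophilin ligand too low to fit at T2, was called at T3, at 0.0468 CPM at T0 and 1.34 CPM at T3 (adjusted p = 0.0465, edgeR), likewise through its T3 counts alone. Cadm3 was at 3.06 with libraries numbered 1 and 2 only. The medians of the tested adhesion genes above, at 1.64, and of these lists stood beside 0.0023 for all genes at T2. These medians include genes that the filter let in through their T2 counts. Over the genes with enough T0 counts the median was 1.23 for the adhesion genes. It was 0.29 for the extracellular partners, 0.53 for the scaffolds and 0.61 for the other adhesion genes. Over the alternatives the largest adjusted p was 0.176 for C1ql3, 0.0994 for Lin7c, 0.115 for Gphn, 0.126 for Lphn2 and 0.0616 for Ptprf, so these calls were not kept throughout. At T1, 1 of 11, 6 of 14 and 9 of 24 fitted genes of the 3 lists rose and 1, 1 and 0 fell, where 15.1% of all genes were higher and 16.8% lower. At T3, 1 of 13, 2 of 15 and 2 of 25 rose and 0 fell, where 3.31% were higher and 1.41% lower. From T1 to T2, 1 gene of the 3 lists was called, Cadm3, higher at T2 by 1.39 ± 0.19 (adjusted p = 0.0156, edgeR), and it was not called without T1 replicate 1.

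**Figure D4:**
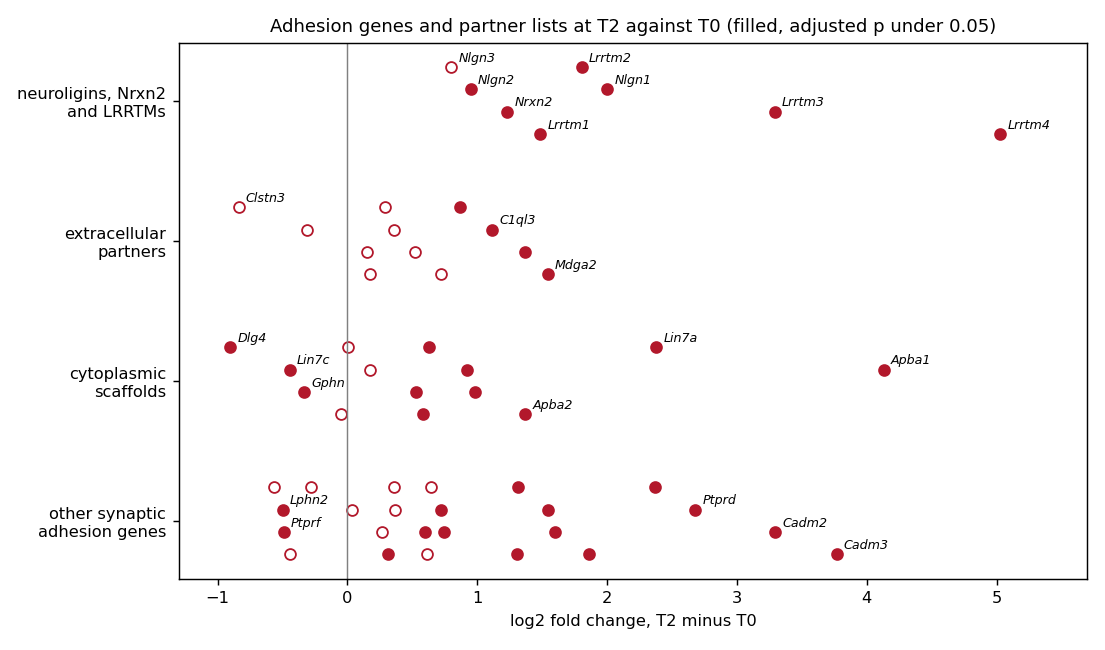
Log2 fold change at T2 against T0 of 8 adhesion genes and of 3 lists of related genes, 1 point per gene fitted, with filled points for an adjusted p under 0.05 (edgeR). Of the 8 adhesion genes 7 were called higher, and in the lists 4 of 12, 8 of 14 and 13 of 24 were called higher and 0, 3 and 2 lower.

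Neurexin transcripts are spliced under the control of KH-domain RNA-binding proteins, encoded by Khdrbs1, Khdrbs2 and Khdrbs3. Khdrbs1 was at 252 ± 36.4 CPM at T0 and 199 ± 7.74 at T2 (adjusted p = 0.0523, edgeR), and Khdrbs3 at 132 ± 35.9 and 122 ± 3.09 (adjusted p = 0.641, edgeR). Khdrbs2 had 0 reads in the T0 libraries, at most 1 at T1, 1 or 2 at T2, and 39 and 6 reads in T3 replicates 1 and 4, too few for the fit. Splice forms of the neurexins were not analysed here.

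Across the 12 libraries, the 12201 genes with enough counts were ranked by the Pearson correlation of their log2 CPM with that of each adhesion gene. The libraries share the step from T0 and differ in depth, so these values are a description. The most similar genes to Nrxn2 were Mtap6 (r = 0.997), Tbc1d16 (0.993) and Ppm1h (0.992), and those to Nlgn1 were Pcdhb7, Tbc1d16 and Mcf2l (0.994, 0.994 and 0.993). Nlgn2 was closest to Pcdh10 (0.992), Mcf2l (0.991) and Pdgfra (0.990), the oligodendrocyte precursor marker given above. Lrrtm2 was closest to Miat, Pyroxd2 and B3gat1 (0.993, 0.991 and 0.988). Nlgn3 and Lrrtm1 had lower maxima, 0.965 with Impg2 and 0.966 with Frmpd1. The most similar genes were Thrb, Ano4 and Rph3a for Nrxn3 (0.977, 0.976 and 0.972), Slc8a1, Herpud1 and Opcml for Lrrtm3 (0.979, 0.978 and 0.976), and Ndrg4, Cdh11 and Gm11190 for Lrrtm4 (0.989, 0.982 and 0.979). Among the 9 genes themselves, Nlgn1 and Lrrtm2 were most alike (0.985), followed by Nrxn2 and Nlgn1 (0.983), and Nrxn3 was closest to Lrrtm3 (0.899).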

How the data were processed

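RNAseq libraries of 12 ANS cell samples were made with a polyA TruSeq kit that does not mark strand. Per the labels the authors used TopHat2 2.0.6, Bowtie 0.12.7.0 and HTSeq 0.6.0 on mm9, and deposited a raw count per gene for each library. The authors also deposited FPKM values per gene, whose tool is not given in the sources used here. The 5 entries that name no gene were left out; reads on no gene were 13.3% to 24.1% of uniquely aligned reads.

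Groups and replicate numbers were taken from the labels. The deposited name of T3 replicate 4 holds a further number that the labels do not explain. Each pair of time points was fitted on its own libraries with edgeR 4.0.16 in R 4.3.3 (TMM, filterByExpr, quasi-likelihood test, adjusted over all genes, threshold 0.05). The SE is the absolute log2 fold change divided by the square root of F. Alternatives were DESeq2 1.42.0, its size factors in edgeR, no filter, 1 fit of all 12 libraries, limma 3.58.1 on log2(FPKM + 0.1) for genes with a mean FPKM of at least 0.1, the replicate number as a block, libraries numbered 1 and 2, and leaving out single libraries. Fits were tested on simulated data. The filter kept genes with about 10 reads in as many libraries as the smaller group had. A fold against 0 reads uses 3 reads per library. Deviations from group means correlated at 0.251, 0.396 and 0.180 between same-numbered T1 and T2 libraries, so these numbers were taken as paired. At most 3 rises and 3 falls per list are named, from genes called in a comparison, and 1 of these is not reported here. The adhesion genes and lists were chosen with earlier results of these data known. Likeness used log2 CPM with a prior count of 2, for genes with a mean of at least 1 CPM and 10 reads in 2 libraries.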

Additional observations from a re-analysis of the deposited data

Results flagged for a closer look

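Within T2, the only time point with more than 3 libraries, Nrxn3 in replicate 3 stood apart from the other libraries. It had 11 reads (1.00 CPM), against 20, 22 and 34 reads (1.91, 2.04 and 2.09 CPM), and the gap to the nearest library was 0.837 of the whole range. This is given as a description with no test, since the gene was chosen by its values over these libraries. In FPKM replicate 3, at 0.416, lay within the range of the other T2 libraries. All 9 genes were examined in this way, and chance alone marks about 1 group in 20.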

How the results depend on the processing

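Of the comparisons with T0, the one at T2 was steady, with 7 or 8 of the 8 genes called in each alternative (8 with DESeq2 and with libraries numbered 1 and 2 only), and no value against T0 turned its direction. Over all genes, 10.8% to 27.5% were higher in these T2 alternatives. At T1 the number called was 8 with libraries numbered 1 and 2 only, where 29.9% of all genes were higher. It was 1 to 7 when single libraries were left out, where 6.47% to 25.2% of all genes were higher. At T3 the number was 5 with DESeq2, 7 in the fit of all 12 libraries and 0 with limma on FPKM. Of all genes, 8.11%, 15.4% and 0.272% were higher in these fits. The number was 0 to 6 when single T0 libraries were left out, where 0.104% to 9.94% of all genes were higher. From T1 to T2 the number was 1 with DESeq2 and 1 with the replicate block, where 1.63% and 1.51% of all genes were higher. It was 0 when single libraries were left out, where 0.0716% to 0.477% of all genes were higher. From T2 to T3 the number was 1 with DESeq2 and 1 without the filter, where 3.27% and 2.35% of all genes were higher. It was 0 when single T2 libraries were left out, where at most 0.0399% of all genes were higher.

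Of the 67 genes on the 3 lists, 18 were called at T1 and 39 with libraries numbered 1 and 2 only. Leaving out single libraries gave 10 to 32. There were 32 without T0 replicate 3, 11 without T1 replicate 1 and 10 without T1 replicate 2. Of all genes, 29.9% were higher and 29.9% lower with libraries numbered 1 and 2 only, and 25.2% and 24.9% without T0 replicate 3. Without T1 replicates 1 and 2, 6.68% and 6.47% were higher and 7.84% and 7.5% lower. At T3, 5 were called, 17 with DESeq2, 11 without the filter, 28 in the fit of all libraries and 0 with limma. Of all genes, 8.11%, 4.1%, 15.4% and 0.272% were higher in these alternatives, and 7.06%, 2.62%, 14.4% and 0.296% lower. Without T0 replicate 3 the number was 17, where 9.94% of all genes were higher and 8.49% lower. It was 0 without T0 replicate 1 or T0 replicate 2, where 0.111% and 0.104% were higher. From T1 to T2, 1 was called, 0 in the fit of all libraries, 0 with limma and 2 with the replicate block. Of all genes, 0.0232%, 0.0234% and 1.51% were higher in these alternatives. The number was 0 to 1 when single libraries were left out, where 0.0716% to 0.477% of all genes were higher. From T2 to T3, 0 were called, and 2 extracellular partners, 2 scaffolds and 3 other adhesion genes had an unadjusted p under 0.05 (edgeR). DESeq2 called 0, where 3.27% of all genes were higher and 2.51% lower. Without the filter 1 was called, where 2.35% were higher and 1.65% lower.

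Small values at the later steps turned their sign. From T1 to T2 these were Nrxn2 with limma (-0.061), Nlgn1 with limma (-0.25) and with libraries numbered 1 and 2 only (-0.028). When single libraries were left out, Nrxn2 ranged from -0.055 to 0.038, Nlgn1 from -0.026 to 0.11 and Nlgn2 from -0.032 to 0.18. From T2 to T3 these were Nrxn2 with the replicate block (0.011) and Nlgn3 with limma (-0.12), and when single libraries were left out Nrxn2 ranged from -0.19 to 0.059, Nlgn1 from -0.63 to 0.17, Nlgn2 from -0.41 to 0.20, Nlgn3 from -0.48 to 0.42 and Lrrtm2 from -0.60 to 0.088. The cause was not tested. With CPM per exon kb in place of FPKM, chosen after seeing the data, the mean share of Lrrtm3 among the LRRTMs at T3 was 25.3% in place of 43.2%. Over all genes the replicate block gave 246 calls at T2 against T1 in place of 71 higher and 7 lower, and the pairing could not be fitted at T3 against T0, where 1 number is shared. Same-numbered libraries were not taken as paired at T0 against T1 or T2, where their deviations correlated at -0.170 to 0.135. The block called 4 and 7 of the 8 genes there. The labels do not say whether these libraries were paired, and at T0 against T3 replicate 1 gave 0.448. At the T3 design, with 2 libraries, changes near 1 on the log2 scale were rarely called in simulated data. Fewer genes were changed there than were called here at T3 against T0, which makes the adjusted threshold stricter. How many changes were missed at T3 in these data was therefore not tested.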
